A study of Homo sapiens with 2 samples.

Results

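The 10 genes described here belong to the PARP and TRIM families or encode a partner of them, namely PARP9, DTX3L, PARP14, PARP10, PARP12, TRIM21, TRIM22, TRIM25, TRIM14 and PML. They were followed in tumours of OVCAR5, a human cell line from ovarian carcinoma. The genes were taken by symbol from the gene rows of the count matrix, and 10 of 10 were found among 36601 genes. The single-cell library pooled 13 tumours grown in NSG-B2m-/- mice, which are immunodeficient and lack mouse B2m. The line carried an IFNy-sensing reporter, and the cells were sorted as CFP+. Cytokine was injected into the tumour. Of the 13 tumours, 3 received TNFa (10 ng/ml, 6 h) and 2 received IFNy (interferon gamma, also written IFNg; 100 ng/ml) together with TNFa (10 ng/ml) over 6 h. IFNy alone (100 ng/ml) was given to 2 tumours for 24 h and to 1 tumour for 48 h. The tumours left unexposed numbered 2 at 6 h, 2 at 24 h and 1 at 48 h. This account rests on the pool's own description, and it conflicts with the treatment labels of both libraries (gene expression and hashtags), which name 1 condition each. All tumours share the cell line, the reporter and the host strain. Each tumour was marked with antibody-bound barcodes (hashtags) that appeared as a pair on a cell, and 13 pairs were found. No source used here says which pair marks which tumour. The pairs are therefore described by their hashtags, with no test between exposed and unexposed tumours, and intervals cover counting error only.

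PARP proteins attach ADP-ribose to their targets, and the interferon-induced members PARP9, PARP10, PARP12 and PARP14 belong to those known for mono-ADP-ribosylation or for reading it through macrodomains. TRIM proteins are mostly E3 ubiquitin ligases with a RING domain, and several act in the defence against viruses. Interferons are known to induce both groups through transcription factor complexes that bind interferon-stimulated response elements (ISRE) or gamma-activated sites (GAS) near gene starts. Interferon gamma acts mainly through GAS, directly and by way of the factor IRF1, which binds ISRE-type elements.

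The promoters of these genes are shown first, because the ISRE core was the sequence feature that most of them shared. RefSeq promoters on GRCh38.p14, from 250 bases before to 50 bases after a gene start, were at hand for 7 of the 10 genes (8 promoters, since PARP9 has a further start). The ISRE core was searched as GAAA, any 2 bases and GAAA again, and the GAS as TTCNNNGAA, each on both strands. The ISRE core lay in promoters of 6 of these 7 genes (PARP9, DTX3L, PARP14, PARP12, TRIM14 and TRIM21) and 6 of the 8 promoters, against 3.57% of all 35116 promoters in the table. TRIM25 had no match in this window. The GAS letters were found in the promoter of PARP14 alone among the 7 genes, as TTCCAGGAA, against 7.66% of all promoters. The sequences below run 5′ to 3′ along the strand of the gene, from 70 bases before to 20 bases after the start, except for TRIM21, where bases 5 to 34 of the transcript are shown. Capitals mark the ISRE core, which reads TTTC, any 2 bases and TTTC where it lies on the other strand, and in TRIM21 both overlapping matches.
PARP9 (chr3:122564281-122564370, minus strand): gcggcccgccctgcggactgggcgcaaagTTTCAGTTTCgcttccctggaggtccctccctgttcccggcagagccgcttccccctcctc
DTX3L (chr3:122564268-122564357, plus strand): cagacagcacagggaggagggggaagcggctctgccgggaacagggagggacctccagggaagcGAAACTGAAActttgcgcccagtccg
PARP14 (chr3:122680769-122680858, plus strand): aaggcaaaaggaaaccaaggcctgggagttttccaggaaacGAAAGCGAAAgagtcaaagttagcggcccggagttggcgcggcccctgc
PARP12 (chr7:140062932-140063021, minus strand): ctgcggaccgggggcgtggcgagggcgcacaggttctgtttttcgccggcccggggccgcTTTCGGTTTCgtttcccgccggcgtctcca
TRIM14 (chr9:98119203-98119292, minus strand): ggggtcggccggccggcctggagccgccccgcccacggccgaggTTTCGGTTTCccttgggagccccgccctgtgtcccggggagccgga
TRIM21 (chr11:4393669-4393698, minus strand): ttgcttctgagcgGAAACTGAAAGTGAAAt

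PARP9 and DTX3L share a single ISRE core at chr3:122564332-122564341. The genes start on opposite strands, PARP9 at base 122564300 and DTX3L at base 122564338, which are 38 bases apart, and point away from each other. The match lies 41 to 32 bases before the PARP9 start and spans 6 bases before to 4 bases after the DTX3L start. The other PARP9 start, at base 122564784, lies within DTX3L, so from that start the genes overlap, and it had no match in its window. In PARP14 the ISRE core lies 29 to 20 bases before the start, and the GAS letters lie 40 to 32 bases before it, in lower case in the sequence above. In TRIM21, 2 overlapping matches lie inside the transcript, at bases 18 to 27 and 24 to 33. A match describes letters and is no measurement of binding.

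The matrix held 9083 barcodes with 64826985 gene UMIs (counted molecules). The filter (at least 500 genes, no more than 20% of UMIs from mitochondrial genes) kept 3611 barcodes, and 2994 of these carried a clear hashtag pair. The pairs held 110 to 507 cells (median 197) and 765923 to 5058403 UMIs, and the median cell had 8646 UMIs and 2842 genes. From 24.3% of the barcodes of a pair (HTO3+HTO6) to 58.2% (HTO4+HTO7) passed the cell filter, so the values describe a minority of the barcodes of most pairs. Epithelial markers were present, as the labelled carcinoma line calls for: 95.8% of the 2994 cells had 3 or more of 10 epithelial markers, and KRT18 was found in 99.1%. The list was uneven, since CDH1 was found in 1.87% of cells and MUC1 in 5.98%. Of the 2994 cells, 16 had 3 or more macrophage or monocyte markers and 2 had 3 or more fibroblast markers. For each of the T cell, B cell, neutrophil and endothelial lists, 0 cells had 3 or more markers. This allows up to 0.1% of cells with that many markers. The genes counted are human, so mouse cells of the host would be largely missed by these lists, and their presence was not tested. The most frequent marker of each list was COL1A1 (2.37% of cells) for fibroblasts, CD68 (27.4%) for macrophages, LCK (2.30%) for T cells, CD79A (0.200%) for B cells, FCGR3B (0.0334%) for neutrophils and PECAM1 (2.77%) for endothelium, while CD3E, MS4A1 and KDR were at 0. The summed macrophage markers had 73.0 CPM (UMIs per 1000000 gene UMIs) in HTO2+HTO7, the highest pair, and 39.2 CPM in HTO4+HTO9, the lowest. The summed epithelial markers had 7610 CPM in HTO4+HTO6 and 3760 CPM in HTO2+HTO8, so they were lowest in the pair where the 10 genes were highest, and the part of this in the results was not tested. No cells known to lack the 10 genes were at hand, so the share of their UMIs that came from free RNA was not tested.

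In the 13 pairs the 10 genes gave 24683 UMIs, and their summed level varied 6.30-fold. The sum was 1925 CPM in HTO2+HTO8 and 1762 CPM in HTO2+HTO9. HTO4+HTO9 followed with 1491 CPM, then HTO4+HTO8 with 1309 CPM. The next pairs were HTO2+HTO7 with 810.2 CPM, HTO2+HTO6 with 799.5 CPM and HTO2+HTO5 with 683.8 CPM, the median pair. HTO3+HTO6 had 505.6 CPM, HTO4+HTO7 had 497.7 CPM and HTO4+HTO6 had 451.2 CPM. The lowest were HTO3+HTO7 with 334.3 CPM, HTO3+HTO5 with 330.0 CPM and HTO3+HTO9 with 305.4 CPM. The ratio of HTO2+HTO8 to HTO3+HTO9 was 6.30 (exact 95% interval 5.69 to 6.999). Between neighbours in this order, 8 of 12 steps had an interval above 1, and the step between HTO4+HTO8 and HTO2+HTO7 was the largest, at 1.62-fold (1.52 to 1.71).

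**Figure D1:**
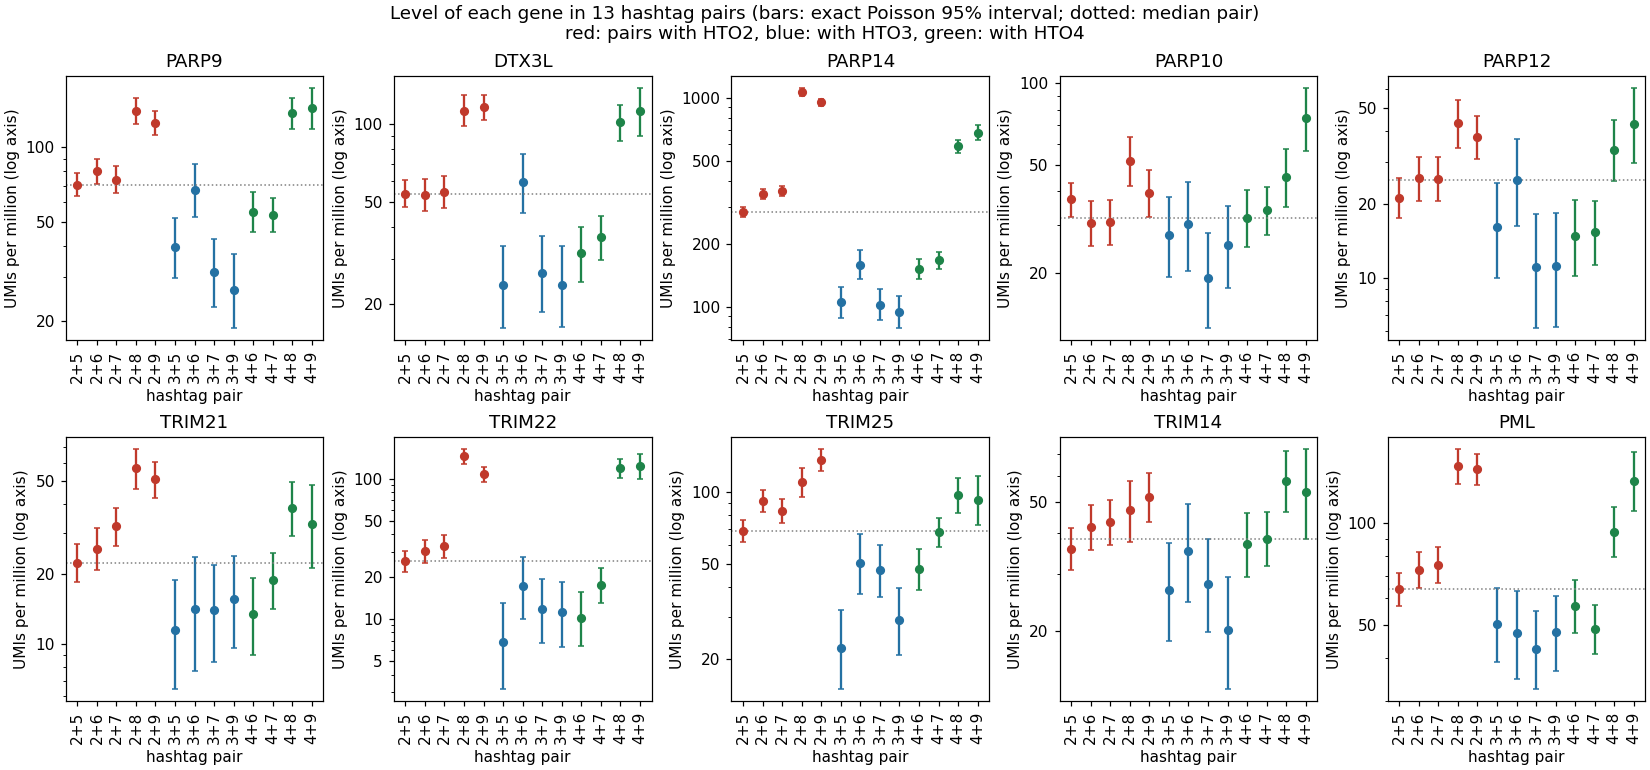
Level of each of the 10 genes (CPM, log axis, a scale of its own per gene) in the 13 hashtag pairs, named by their hashtag numbers, with exact Poisson 95% intervals and the median pair as a dotted line. Pairs 2+8, 2+9, 4+8 and 4+9 are the 4 highest in every panel, and the distance to the other 9 pairs is widest for TRIM22.

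Each of the 10 genes had HTO2+HTO8, HTO2+HTO9, HTO4+HTO8 and HTO4+HTO9 as its 4 highest pairs, a pattern noticed after the values were seen. Among all 6264 genes with 500 UMIs or more, 4.29% had these same 4 pairs at the top. The highest pair was HTO2+HTO8 for 5 genes, HTO2+HTO9 for 2, HTO4+HTO9 for 2 and HTO4+HTO8 for 1. The lowest was HTO3+HTO5 for 4 genes, HTO3+HTO7 for 3 and HTO3+HTO9 for 3. Both pairs that carry HTO8 were among the 4 high ones, while of the 3 pairs with HTO9, HTO3+HTO9 was at the low end. The lowest of the 4 exceeded the highest of the other 9 pairs beyond counting error for 5 genes, namely TRIM22 (3.26-fold, 2.62 to 4.08), DTX3L (1.71-fold), PARP14 (1.63-fold), PARP9 (1.56-fold) and PML (1.25-fold, 1.01 to 1.54). For PARP10, PARP12, TRIM21, TRIM25 and TRIM14 this gap was 1.01-fold to 1.31-fold, with intervals that include 1.

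Between their highest and lowest pair, 6 of 10 genes differed 4-fold or more, against 21.7% of all 13596 genes with 30 UMIs or more and 6.85% of the 6264 genes with 500 UMIs or more. The 10 genes had 707 to 11193 UMIs, so the second background is nearer to their counts. The lower bound of the ratio was 2 or more for 9 of 10, against 10.0% of genes with 30 UMIs or more and 12% of genes with 500 UMIs or more (749 of 6264). The median ratio was 4.92 over the 10 genes, against 2.33 and 1.84 in the same backgrounds. Highest and lowest pairs are picked on these counts, and the intervals do not allow for that choice.

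**Figure D2:**
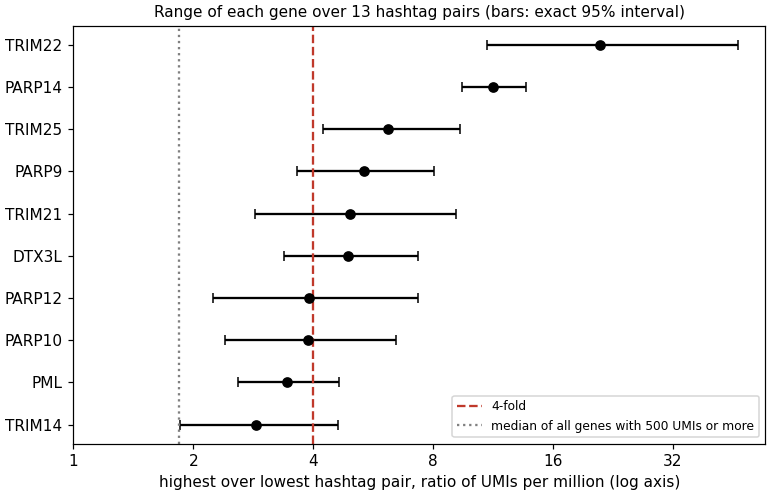
Ratio of the highest to the lowest hashtag pair for each of the 10 genes (points, log axis) with its exact 95% interval, a dashed line at 4-fold and a dotted line at the median of all genes with 500 UMIs or more (1.84). TRIM22 and PARP14 stand furthest right, at 21.0 and 11.3, and TRIM14 lies lowest, at 2.88.

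Against the median pair of each gene, HTO2+HTO8 had 5 of 10 genes at 2-fold or more (DTX3L, PARP14, TRIM21, TRIM22 and PML), where 4.51% of all genes with 30 UMIs or more reached it. HTO2+HTO9 had the same 5 genes, against 4.36% of all genes. HTO4+HTO9 had 6 (PARP9, DTX3L, PARP14, PARP10, TRIM22 and PML), against 5.55%. HTO4+HTO8 had 2 (PARP14 and TRIM22), against 4.08%. Among genes with 500 UMIs or more the background was lower, at 3.88%, 3.64%, 2.52% and 1.87% in these same pairs. In each of the other 9 pairs 0 of the 10 genes reached 2-fold. The share of all genes that did was 1.28% in HTO2+HTO5, 2.93% in HTO2+HTO6, 2.85% in HTO2+HTO7, 3.16% in HTO3+HTO5 and 4.95% in HTO3+HTO6. It was 3.04% in HTO3+HTO7, 2.93% in HTO3+HTO9, 2.45% in HTO4+HTO6 and 1.91% in HTO4+HTO7. In the other direction, 0.5 times the median pair or less, HTO3+HTO9 had 6 of 10 genes (PARP9, DTX3L, PARP14, PARP12, TRIM22 and TRIM25), against 5.48% of all genes with 30 UMIs or more. HTO3+HTO7 had 5 (PARP9, DTX3L, PARP14, PARP12 and TRIM22), against 6.53%. HTO3+HTO5 had 4 (DTX3L, PARP14, TRIM22 and TRIM25), against 6.36%, and HTO4+HTO6 had TRIM22 alone, against 3.86%. Among genes with 500 UMIs or more these backgrounds were 1.39%, 1.74%, 1.74% and 0.926%. The remaining 9 pairs had 0 of the 10 genes at this level. The share of all genes there was 1.1% in HTO2+HTO5, 4.55% in HTO2+HTO6, 2.99% in HTO2+HTO7, 11.5% in HTO2+HTO8 and 8.09% in HTO2+HTO9. HTO3+HTO6 had 5.84%, HTO4+HTO7 had 2.91%, HTO4+HTO8 had 6.5% and HTO4+HTO9 had 12% (1632 of 13596).

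PARP14, a macrodomain-containing mono-ADP-ribosyltransferase known as a cofactor of STAT6, supplied 45.4% of the UMIs of the 10 genes. UMIs are not corrected for transcript length here, so this is a share of counted molecules. PARP14 had 1071 CPM in HTO2+HTO8, 952.5 CPM in HTO2+HTO9, 682.8 CPM in HTO4+HTO9 and, lowest of the 4, 585.3 CPM in HTO4+HTO8. The other HTO2 pairs had 284.3 CPM (HTO2+HTO5), 347.7 CPM (HTO2+HTO6) and 358.6 CPM (HTO2+HTO7). The other HTO4 pairs had 152.1 CPM (HTO4+HTO6) and 166.6 CPM (HTO4+HTO7), and the HTO3 pairs had 104.9 CPM (HTO3+HTO5), 159.1 CPM (HTO3+HTO6), 102.4 CPM (HTO3+HTO7) and 94.6 CPM (HTO3+HTO9). The 4 high pairs did not overlap with the rest, and of the remaining 9, the HTO2 pairs lay above all HTO3 and HTO4 pairs. HTO2+HTO8 exceeded HTO3+HTO9 11.3-fold (9.46 to 13.7), and it was 3.77 times the median pair (3.52 to 4.04). PARP14 also had the finest order, with 7 of 12 steps between neighbouring pairs above counting error. The steps within it that were not were HTO2+HTO7 to HTO2+HTO6, HTO4+HTO7 to HTO3+HTO6, HTO3+HTO6 to HTO4+HTO6, HTO3+HTO5 to HTO3+HTO7 and HTO3+HTO7 to HTO3+HTO9. Without PARP14, the sum of the other 9 genes was 853.9 CPM in HTO2+HTO8 and 210.8 CPM in HTO3+HTO9, a ratio of 4.05 (3.57 to 4.61). The gene lies at chr3:122680618-122730840 on the plus strand in GENCODE 29 (GRCh38), beyond DTX3L on the same chromosome.

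PARP9 encodes a macrodomain protein that forms a complex with DTX3L, an E3 ubiquitin ligase, and their genes overlap at their 5′ ends on opposite strands (PARP9 at chr3:122527924-122564577 and DTX3L at chr3:122564238-122575203). PARP9 had 143.6 CPM in HTO4+HTO9, 140.0 CPM in HTO2+HTO8, 136.7 CPM in HTO4+HTO8 and 124.9 CPM in HTO2+HTO9, and 26.8 to 79.9 CPM (median pair of all 13, 70.8 CPM) in the other 9. DTX3L had 116.4 CPM in HTO2+HTO9, 113.0 CPM in HTO2+HTO8, 112.3 CPM in HTO4+HTO9 and, lowest of the 4, 101.7 CPM in HTO4+HTO8, and 23.7 to 59.4 CPM (median pair of all 13, 53.8 CPM) in the other 9. Within the 4 high pairs neither gene had a step above counting error, so unlike PARP14 they had no order there that the counts resolve. Highest over lowest was 5.36 (3.65 to 8.04) for PARP9 and 4.90 (3.38 to 7.35) for DTX3L.

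Of all UMIs of PARP9 and DTX3L, PARP9 held 56.8% (Clopper-Pearson interval 55.2% to 58.3%). By pair the share was 63.6% (56.3% to 70.5%) in HTO4+HTO6 at the highest and 51.8% (47.8% to 55.8%) in HTO2+HTO9 at the lowest, on 68 to 630 UMIs a pair. The intervals of these extremes do not overlap, and the pairs were picked on the counts. The share was 53.2% in HTO3+HTO6, where both genes stood out from the other HTO3 pairs. Across the 13 pairs PARP9 and DTX3L had a Pearson correlation of 0.969 on log2(CPM + 1), a description of pairs that share 1 library and fall into few levels.

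PARP10 and PARP12 are mono-ADP-ribosyltransferases, and PARP12 carries zinc fingers. PARP10 (minus strand of chromosome 8) had 74.4 CPM in HTO4+HTO9, 51.9 CPM in HTO2+HTO8, 45.1 CPM in HTO4+HTO8 and 39.6 CPM in HTO2+HTO9, and 19.2 to 37.4 CPM in the other 9 pairs. HTO4+HTO9 stood above HTO2+HTO8 by 1.43-fold (1.02 to 2.01), its only step between neighbours above counting error. PARP12 (chr7:140023744-140063721, minus strand) had 43.2 CPM in HTO2+HTO8, 43.1 CPM in HTO4+HTO9, 38.0 CPM in HTO2+HTO9 and 33.7 CPM in HTO4+HTO8, and 11.1 to 25.6 CPM in the other 9. For PARP12, 0 of 12 steps were above counting error. The ratios of highest to lowest pair were 3.89 (2.40 to 6.44) for PARP10 and 3.91 (2.24 to 7.32) for PARP12.

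TRIM22, an E3 ubiquitin ligase known to restrict HIV, had the widest range of the 10 genes. It had 144.8 CPM in HTO2+HTO8, 122.7 CPM in HTO4+HTO9, 118.5 CPM in HTO4+HTO8 and 107.1 CPM in HTO2+HTO9. The other HTO2 pairs had 25.7 CPM (HTO2+HTO5), 30.5 CPM (HTO2+HTO6) and 32.9 CPM (HTO2+HTO7), and the 6 remaining pairs had 6.89 to 17.5 CPM. Between neighbouring pairs, only the steps below the 4 high pairs and below the other HTO2 pairs were beyond counting error. These groups were not level or fully apart. HTO2+HTO8 exceeded HTO4+HTO8 1.22-fold (1.01 to 1.49). HTO3+HTO6, with 17.1 CPM, was not set apart from HTO2+HTO5 (0.666 times, 0.377 to 1.11). HTO2+HTO8 exceeded HTO3+HTO5 21.0-fold (10.9 to 46.5), on 268 UMIs in HTO2+HTO8 and 9 UMIs in HTO3+HTO5. With a stricter filter (1000 genes, 10% mitochondrial UMIs, 400 cells) the ratio of its highest to its lowest pair was 6.96 (2.09 to 36.3). TRIM22 lies at chr11:5689689-5737089 on the plus strand and overlaps TRIM5 on the other strand.

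TRIM21, a cytosolic receptor for antibody Fc parts and an E3 ligase, had its top values in HTO2 pairs. It had 56.8 CPM in HTO2+HTO8, 50.8 CPM in HTO2+HTO9, 38.4 CPM in HTO4+HTO8 and 32.6 CPM in HTO4+HTO9. HTO2+HTO7 followed closely with 32.01 CPM, and the other 8 pairs had 11.5 to 25.6 CPM. The gene lies at chr11:4384897-4393696 on the minus strand. Highest over lowest was 4.94 (2.86 to 9.14), and 11.8 (3.80 to 59.0) with cells thinned to 4000 UMIs. With the stricter filter and every pair kept it was 3.60 (0.897 to 31.3). The lowest pair was then HTO2+HTO8, on 12 cells, and the highest was HTO2+HTO9. In barcodes left out for mitochondrial UMIs, HTO4+HTO9 was the highest pair and HTO4+HTO6 the lowest, a ratio of 5.83 (2.32 to 17.45).

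TRIM25, an E3 ligase known for its part in RIG-I signalling and as a ligase for ISG15, had 137.0 CPM in HTO2+HTO9, 110.3 CPM in HTO2+HTO8, 96.99 CPM in HTO4+HTO8 and 92.7 CPM in HTO4+HTO9. HTO2+HTO6 with 91.9 CPM (82.3 to 102.2) and HTO2+HTO7 with 83.1 CPM (73.9 to 93.15) came next. HTO2+HTO9 (123.0 to 152.0) lay above both intervals, and HTO2+HTO8 (95.6 to 126.5) above that of HTO2+HTO7 only. HTO4+HTO8 (81.8 to 114.2) and HTO4+HTO9 (72.4 to 116.9) were not set off from these pairs. HTO3+HTO5 had the lowest level, 22.2 CPM, and the ratio of HTO2+HTO9 to it was 6.17 (4.22 to 9.35). Among barcodes over 20% mitochondrial UMIs its highest pair exceeded its lowest 3.39-fold (2.45 to 4.76). The annotated TRIM25 gene, chr17:56836387-56914080 on the minus strand, overlaps C17orf67 on the same strand, which had 666 UMIs. How reads in the overlap were divided, and whether counting used strand, was not given in the sources used here. TRIM25 levels carry that uncertainty, as do PARP9, DTX3L, PARP10, TRIM22 and TRIM14, whose neighbours overlap them on the other strand.

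TRIM14, an adaptor protein of the TRIM family without a RING domain, had the narrowest range. It had 57.9 CPM in HTO4+HTO8, 53.5 CPM in HTO4+HTO9, 51.6 CPM in HTO2+HTO9 and 47.0 CPM in HTO2+HTO8, and 20.1 to 43.3 CPM in the other 9 pairs. Its ratio was 2.88 (1.85 to 4.62), and it was the gene among the 10 whose lower bound fell under 2. The gene lies at chr9:98069275-98119212 on the minus strand and overlaps NANS on the other strand.

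PML, also called TRIM19, is the scaffold of PML nuclear bodies. It had 147.0 CPM in HTO2+HTO8, 143.9 CPM in HTO2+HTO9, 133.2 CPM in HTO4+HTO9 and, lowest of the 4, 94.3 CPM in HTO4+HTO8, and 42.7 to 75.3 CPM in the other 9 pairs. HTO4+HTO8 was below the other 3 high pairs, and HTO4+HTO9 exceeded it 1.41-fold (1.08 to 1.84). Highest over lowest was 3.44 (2.58 to 4.65). The gene lies at chr15:73994673-74047812 on the plus strand.

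The high pairs came in 2 sorts, with HTO2 and with HTO4, and pairs that share HTO8 or HTO9 were set side by side after the values were seen. HTO2+HTO8 over HTO4+HTO8 was 1.83 (1.69 to 1.98) for PARP14, 1.56 (1.27 to 1.93) for PML, 1.48 (1.06 to 2.08) for TRIM21 and 1.22 (1.01 to 1.49) for TRIM22. The other 6 genes had intervals that include 1, with PARP9 at 1.02 (0.849 to 1.24) and TRIM14 at 0.812 (0.596 to 1.11). HTO2+HTO9 over HTO4+HTO9 was 1.40 (1.27 to 1.54) for PARP14, 1.56 (1.01 to 2.49) for TRIM21 and 1.48 (1.14 to 1.93) for TRIM25. It was 0.532 (0.381 to 0.749) for PARP10 and 1.08 (0.866 to 1.36) for PML. So PARP14 and TRIM21 were higher in the HTO2 pair in both comparisons, while PML, TRIM22, TRIM25 and PARP10 passed counting error in 1 of them. For TRIM21 the HTO9 comparison rested on 25 UMIs in HTO4+HTO9, and its direction was reversed in barcodes left out for mitochondrial UMIs. With mitochondrial genes left out of the total, TRIM21 there had 35.9 CPM in HTO2+HTO9 and 46.8 CPM in HTO4+HTO9. The HTO8 comparison kept its direction there, with 39.8 CPM in HTO2+HTO8 and 27.2 CPM in HTO4+HTO8.

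Context genes ranged more widely between the same pairs. CXCL10, a chemokine, was 16.6 times (15.2 to 18.1) as high in HTO2+HTO8 as in HTO4+HTO8, and GBP1, a guanylate-binding protein, was 4.15 times (3.87 to 4.46) as high. IRF1, a transcription factor induced by IFNg, was at 1.55 (1.46 to 1.66), close to PML and TRIM21. The class I light chain B2M, at 0.789 (0.770 to 0.809), and the class II chaperone CD74, at 0.445 (0.421 to 0.470), were lower in HTO2+HTO8. NFKBIA (2.74, 2.40 to 3.15) and ICAM1 (6.76, 5.87 to 7.81), both NF-kB targets, were higher in it.

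**Figure D3:**
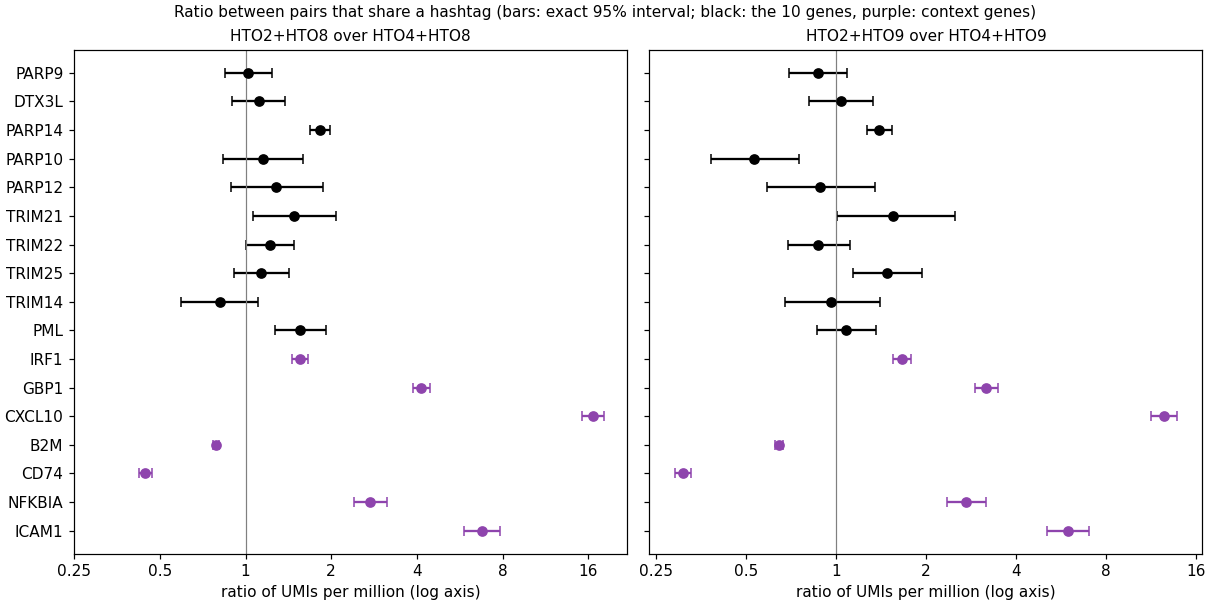
Ratio of CPM (log axis) of HTO2+HTO8 to HTO4+HTO8 (left) and of HTO2+HTO9 to HTO4+HTO9 (right) for the 10 genes (black) and the context genes (purple), with exact 95% intervals. The 10 genes lie between 0.532 and 1.83, while CXCL10 reaches 16.6 on the left and CD74 falls to 0.306 on the right.

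Within the pairs that carry HTO2, HTO2+HTO6 and HTO2+HTO7 had high NF-kB targets (7123 and 5676 CPM over 15 genes, against 1694 CPM in HTO2+HTO5) but only slightly higher levels of the 10 genes. The summed IFNg response genes were higher there too, at 2238 and 2037 CPM, against 995.8 CPM in HTO2+HTO5. The sum of the 10 was 1.17 times (1.11 to 1.23) HTO2+HTO5 in HTO2+HTO6 and 1.19 times (1.13 to 1.25) in HTO2+HTO7. PARP14 was at 1.22 (1.13 to 1.32) in HTO2+HTO6 and 1.26 (1.17 to 1.36) in HTO2+HTO7. TRIM25 was at 1.34 (1.15 to 1.56) in HTO2+HTO6 and 1.21 (1.03 to 1.42) in HTO2+HTO7. TRIM21 was above counting error in HTO2+HTO7 only, at 1.43 (1.095 to 1.88), and PARP9, TRIM22 and PML had intervals that include 1 in both pairs. The sum in HTO2+HTO8 was 2.41 times (2.29 to 2.53) that in HTO2+HTO6.

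HTO3+HTO6 stood above the other HTO3 pairs for DTX3L, PARP9 and PARP14, a comparison chosen after the values were seen. DTX3L had 59.4 CPM there, against 23.7 to 26.5 CPM in HTO3+HTO5, HTO3+HTO7 and HTO3+HTO9, ratios of 2.24 (1.46 to 3.49) to 2.50 (1.59 to 4.001). PARP9 had 67.5 CPM, against 26.8 to 39.8 CPM, ratios of 1.70 (1.16 to 2.48) to 2.52 (1.65 to 3.89). PARP14 was 1.52 to 1.68 times as high as in the other HTO3 pairs, each with an interval above 1. PML had 47.3 CPM, against 42.7 to 50.5 CPM, and TRIM21 had 14.1 CPM, against 11.5 to 15.6 CPM, with intervals of all their ratios including 1. In the same pair the summed MHC class I genes stood at 15570 CPM, against 6585 to 7014 CPM in the other HTO3 pairs, while the summed IFNg response genes stood at 682.8 CPM, against 451.7 to 522.9 CPM. The interferon-stimulated genes stood at 3594 CPM there, against 1283 to 2176 CPM, and the MHC class II genes at 885.2 CPM, against 131.8 to 189.9 CPM. HTO3+HTO6 also had the lowest share of barcodes that passed the cell filter (24.3%), whose part in these values was not tested. In barcodes left out for mitochondrial UMIs the excess was smaller for DTX3L and, against HTO3+HTO7, for PARP9. With mitochondrial genes left out of the total, DTX3L there had 49.7 CPM, against 29.5 to 38.5 CPM in the other HTO3 pairs. In kept cells on that scale it had 69.96 CPM, against 27.9 to 31.0 CPM. PARP9 had 77.4 CPM in left-out barcodes, against 67.1 CPM in HTO3+HTO7, and 79.5 against 37.0 CPM in kept cells.

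**Figure D4:**
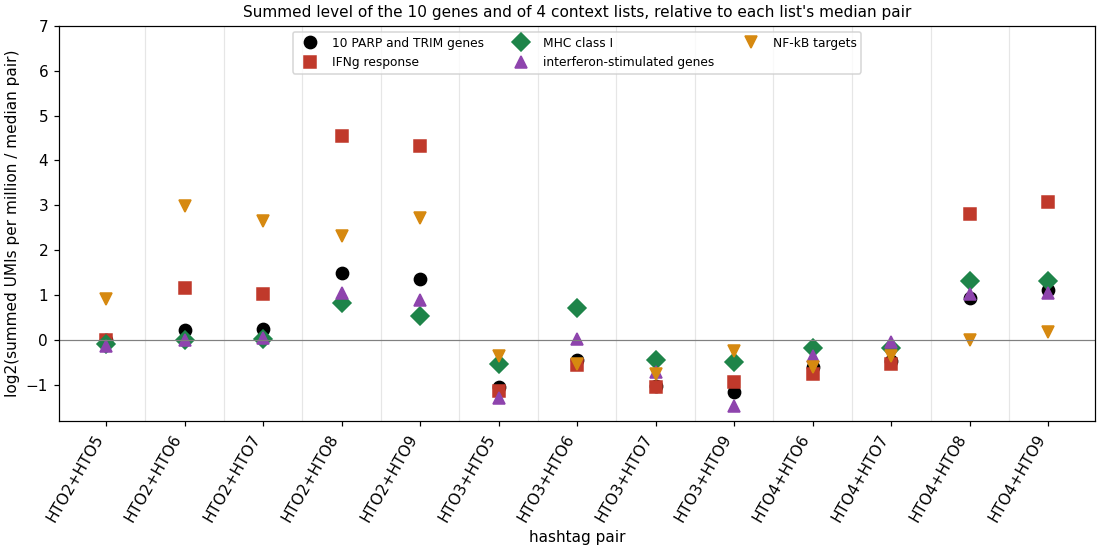
Summed level of the 10 genes (black circles) and of 4 context gene lists in each hashtag pair, as log2 of the ratio to each list's own median pair. The IFNg response genes spread over the widest range, NF-kB targets peak in HTO2+HTO6 and stay near their median in HTO4+HTO8 and HTO4+HTO9, and the 10 genes lie above their median pair mainly in the 4 high pairs.

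Over the 13 pairs the summed level of the 10 genes spanned 6.30-fold, against 51.5-fold (47.5 to 56.0) for 15 IFNg response genes, 39.5-fold for 9 MHC class II genes, 5.72-fold for 15 interferon-stimulated genes and 3.63-fold for 13 MHC class I genes. The highest pair was HTO2+HTO8 for the 10 genes and the IFNg response list. It was HTO4+HTO9 for the interferon-stimulated, MHC class I and MHC class II lists. The interferon-stimulated genes stood at 7292 CPM in HTO2+HTO8 and 7177 CPM in HTO4+HTO8, and at 6582 CPM in HTO2+HTO9 and 7340 CPM in HTO4+HTO9.

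With every cell thinned to 4000 UMIs (2808 cells, leaving out 186 shallower ones), 7 of the 10 genes had the same 4 pairs as the highest by share of cells, and without thinning 6 of 10. The exceptions in thinned cells were TRIM25, where HTO2+HTO6 (28.99%) was above HTO4+HTO9 (27.8%) and HTO4+HTO8 (26.9%), TRIM14, where HTO2+HTO7 (17.96%) was above HTO2+HTO8 (17.88%) and HTO4+HTO9 (17.78%), and PARP10, where HTO4+HTO7 (14.3%) was above HTO2+HTO9 (14.2%). PARP14 was found in 96.1% (92.1% to 98.4%) of cells of HTO2+HTO8, 94.8% of HTO2+HTO9, 88.9% of HTO4+HTO9 and 82.6% of HTO4+HTO8. It was found in 57.7% to 67.3% of cells of the other HTO2 pairs, 40.2% and 48.0% of the other HTO4 pairs and 28.9% to 48.6% of the HTO3 pairs. Without thinning the extremes were 98.9% in HTO2+HTO8 and 52.3% in HTO3+HTO9. TRIM22 was found in 46.9% (39.4% to 54.5%) of thinned cells of HTO2+HTO8 and in 3.10% (0.851% to 7.75%) of those of HTO3+HTO5, and without thinning in 69.7% and 5.71% of these same pairs. In all thinned cells the shares were 61.3% for PARP14, 25.3% for PML, 25.2% for PARP9, 23.4% for TRIM25, 20.9% for DTX3L, 15.9% for TRIM22, 14.9% for TRIM14, 12.9% for PARP10, 10.8% for TRIM21 and 9.19% for PARP12.

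**Figure D5:**
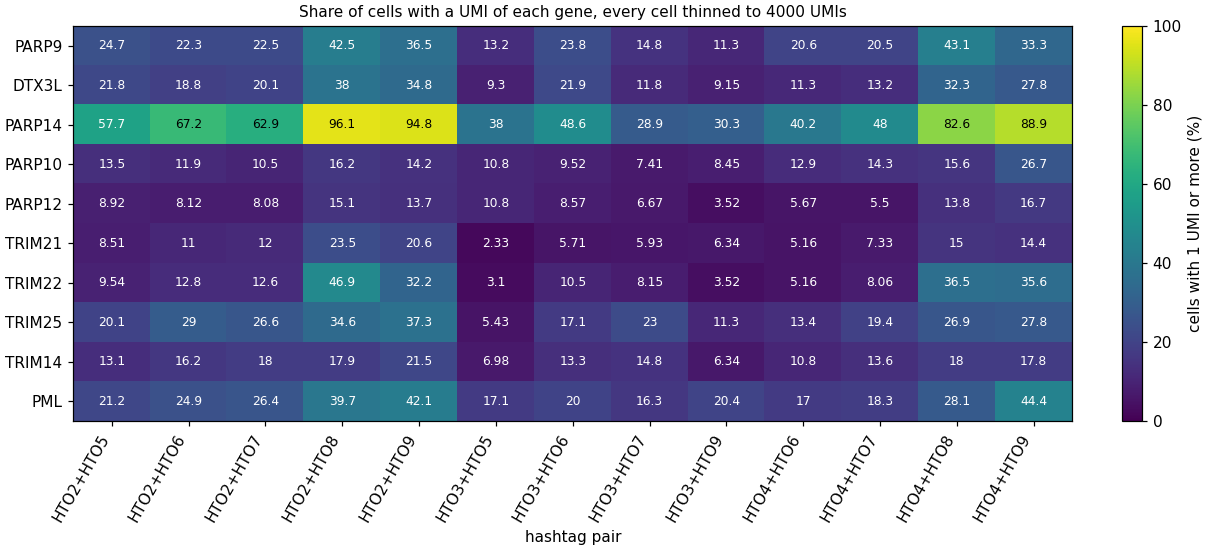
Share of cells (percent, colour and figures) with 1 UMI or more of each of the 10 genes in each hashtag pair, with every cell thinned to 4000 UMIs. PARP14 exceeds 80% in the 4 high pairs, and TRIM22 ranges between 46.9% in HTO2+HTO8 and 3.10% in HTO3+HTO5.

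A thinned cell held UMIs of 3.70 of the 10 genes on average in HTO2+HTO8, 3.48 in HTO2+HTO9, 3.33 in HTO4+HTO9 and 3.12 in HTO4+HTO8. The average was 1.99 to 2.22 in the other HTO2 pairs, 1.42 and 1.68 in HTO4+HTO6 and HTO4+HTO7, and 1.11 to 1.79 in the HTO3 pairs. None of the 10 genes was found in 0.559% of thinned cells of HTO2+HTO8, against 32.6% of those of HTO3+HTO5, the highest share. Nearly every thinned cell of HTO2+HTO8 thus held a UMI of at least 1 of them. Of the variance over thinned cells, 31.3% for PARP14, 12.5% for TRIM22 and 1.09% to 4.88% for the other 8 genes lay between pairs. Within pairs, the mean correlation of the 45 gene pairs over cells was 0.0522 in thinned cells, and the highest was 0.17, for PARP14 and TRIM22. The mean was 0.0968 without thinning and 0.0319 with cells thinned to 2000 UMIs, so it fell with depth. In counts this sparse such correlations are no finding, and low values cannot show that the genes vary apart.

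For each of the 10 genes, the 3 genes with the most similar pattern over the 13 pairs were taken from all genes with 30 UMIs or more. Likeness was the Pearson correlation of log2(CPM + 1), given with no test because the 13 pairs share 1 library, and of the 30 genes named only 7 stay with Spearman correlation and 15 without the 2 farthest pairs. For PARP14 the nearest were SAMD9L (0.996), NMI (0.993) and ETV7 (0.992). For PARP9 they were RTP4 (0.984), XAF1 (0.975) and DDX60 (0.973), and for DTX3L they were OAS3 (0.988), OAS2 (0.978) and IFI16 (0.978). PARP12 was nearest to PIK3AP1 (0.981), PARP9 (0.969) and DTX3L (0.967). TRIM21 was nearest to TNFSF13B (0.988), RBCK1 (0.982) and CASP4 (0.979), and TRIM22 to UBE2L6 (0.987), APOL6 (0.984) and WARS (0.983). TRIM25 was nearest to OASL (0.970), RSAD2 (0.968) and PNPT1 (0.956), and TRIM14 to MX1 (0.967), IFIT5 (0.956) and EIF2AK2 (0.953). PML was nearest to GBP1 (0.979), GBP2 (0.978) and SLC25A28 (0.976). PARP10 differed, with MYL12A (0.942), PCGF5 (0.934) and ENY2 (0.926), and its correlation with the other 9 genes was 0.631 to 0.863.

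Other members of both families were compared in the same way, against 21.7% of all genes at 4-fold or more and 10.0% with a lower bound of 2 or more. Among 12 other PARP genes with 30 UMIs or more, 2 differed 4-fold or more between highest and lowest pair and 2 had a lower bound of 2 or more, namely PARP8 (4.39, 2.40 to 8.78) and ZC3HAV1 (3.32, 2.40 to 4.69), an antiviral zinc finger protein of the family. PARP3 had a ratio of 3.12 (1.89 to 5.26) and PARP1, the DNA damage enzyme, 1.95 (1.47 to 2.62). The median ratio of the 12 was 2.60, near the 2.33 of all genes with 30 UMIs or more. PARP15, whose gene lies between DTX3L and PARP14, had 0 UMIs in all 13 pairs. Of 40 other TRIM genes, 12 differed 4-fold or more and 9 had a lower bound of 2 or more (30% and 22.5%, both above the shares of all genes), with a median ratio of 2.83. These counts ignore direction, and not all of these genes went the way of the 10. With a lower bound above 2, TRIM9 was highest in HTO3+HTO6 (8.06 CPM) and TRIM7 in HTO4+HTO6 (37.1 CPM). Both were lowest in HTO2+HTO9 (0.776 and 11.6 CPM). The largest lower bounds included TRIM69 (7.29, 4.03 to 14.5), TRIM5 (7.01, 3.45 to 15.7), a restriction factor of retroviruses, and TRIM38 (3.65, 2.54 to 5.38). TRIM31 had 20.2 CPM in HTO2+HTO9 and 0 UMIs in HTO3+HTO7, at least 9.13-fold with a floor of 3 counts in that pair, where the counting interval of the ratio at that floor was 2.96 to 45.7.

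Partners of the 10 genes were set against the same shares of all genes (21.7% and 10.0%). Of 7 genes that remove or read ADP-ribose, 2 differed 4-fold or more (28.6%), GDAP2 and MACROD2, and 0 had a lower bound of 2 or more. MACROD2, with 39 UMIs, had a ratio of 6.175 (1.01 to 64.9), and PARG, which degrades ADP-ribose chains, had 28.3 CPM in HTO4+HTO8, its highest pair, and 12.4 CPM in HTO2+HTO8, its lowest. GDAP2, a macrodomain protein, had 12.5 CPM in HTO2+HTO5 and 1.31 CPM in HTO4+HTO9, a ratio with a wide interval (9.54, 1.65 to 383). ADPRHL2, an ADP-ribose hydrolase, had a ratio of 2.13 (1.53 to 3.03), and H2AFY, the macrodomain histone macroH2A1, of 1.60 (1.35 to 1.91). The 11 genes of PML nuclear bodies and the SP family had 937 to 18355 UMIs, so the background of genes with 500 UMIs or more is nearer. In that background 6.85% differed 4-fold or more. Of the 11 genes, 3 differed 4-fold or more (27.3%) and 4 had a lower bound of 2 or more (36.4%). These were ISG20 (15.65, 12.98 to 19.03), an exonuclease, SP110 (6.07, 4.79 to 7.79), SP100 (4.18, 3.56 to 4.94), a core component of the bodies, and SP140L (2.92, 2.26 to 3.84). Of 11 ubiquitin and ISG15 partners, 6 passed each rule (54.5%), among them UBE2L6 (6.21, 5.07 to 7.65), the E2 enzyme for ISG15, ISG15 itself (4.99, 4.68 to 5.33), and USP18 (8.07, 3.92 to 19.3), which removes it. HERC5, the main ISG15 ligase, had 36.8 CPM in HTO2+HTO8 and 1.53 CPM in HTO3+HTO5 (ratio 24.0, 6.39 to 202). Of 6 RNA sensing partners, 4 passed each rule (66.7%), namely IFIH1 (15.2, 11.4 to 20.7), ZNFX1 (7.69, 5.28 to 11.6), DDX58 (7.17, 5.17 to 10.2), which encodes RIG-I, and DHX58 (4.91, 2.25 to 12.7).

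Barcodes outside the filter held the same genes. The 4077 barcodes of the 13 pairs with over 20% mitochondrial UMIs had 696.8 CPM of the 10 genes in sum, and in these too HTO2+HTO8 was the highest and HTO3+HTO9 the lowest pair (ratio 6.67, 6.01 to 7.42, with mitochondrial genes left out of the total). The same 4 pairs were not the highest for every gene in these barcodes. On that scale TRIM25 had 125.1 CPM in HTO2+HTO6 and 96.8 CPM in HTO2+HTO7, above 92.7 CPM in HTO4+HTO8. TRIM21 had 32.6 CPM in HTO4+HTO7, above 27.2 CPM in HTO4+HTO8. DTX3L had 67.4 CPM in both HTO4+HTO8 and HTO2+HTO6. The 617 passing barcodes with no clear pair had 803.9 CPM.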

How the data were processed

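Raw UMI counts of 1 pooled library were deposited for 36601 genes and 10 hashtags over 9083 distinct barcodes. Per the file headers the matrix comes from Cell Ranger 5.0.1. The submitters' processing notes list Cell Ranger 2.1.1 with GRCh38. The annotation behind the counts was not given in the sources used here. Columns of other samples numbered 0.

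A barcode was kept as a cell with at least 500 genes and no more than 20% MT- UMIs. A cell was given to the pair of its 2 highest hashtags of HTO2 to HTO9 where the second had 20 counts or more and at least 4 times the next; of 28 possible pairs, 13 had 50 cells or more. No doublet caller was run: cells with a further high hashtag fail that rule, and doublets within a pair cannot be seen. Counts were summed per pair and given per 1000000 gene UMIs (CPM) with exact Poisson 95% intervals, ratios with exact conditional intervals and shares with Clopper-Pearson intervals, all for counting error only. A pair at 0 was set to 3 counts in ratios. Cells share 1 library and are not replicates, so no p-value was computed. Ratios and intervals were run on simulated Poisson counts, which hold no spread between cells. The intervals were checked there for preset pairs only, which does not cover a highest and lowest pair picked on the counts.

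The members and gene lists were chosen with earlier results of these data known. Named genes were the 10 members, a set of context genes (some not reported here), the 3 genes most like each member, and up to 4 genes of each family or pathway list with the largest lower bound. The most frequent marker of each cell type list was named too. PARP15, MACROD2, TRIM7, TRIM9, CDH1, MUC1 and the markers at 0 were named after values were seen, as were the comparisons between single pairs. The background of genes with 500 UMIs or more was also added later. Alternatives were other cell filters, other hashtag rules (including Seurat 5.3.0's HTODemux at quantile 0.99 under R 4.3.3), thinning, scaling without MT- genes, means over cells, other gene minimums and other likeness measures. Coordinates are GENCODE 29 (GRCh38) and promoters RefSeq GRCh38.p14. Computation used numpy 2.4.6, scipy 1.17.1 and pandas 2.3.3 under Python 3.11.15, and figures matplotlib 3.10.9.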

Additional observations from a re-analysis of the deposited data

Results flagged for a closer look

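Hashtags outside the 8 used had counts. HTO10 had 8418 counts over all barcodes, with a median of 0 and at most 70 per barcode. HTO1 had 96 counts, with at most 4 per barcode. Neither is tied to a tumour in the labels, and their source was not tested.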

How the results depend on the processing

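The summed level of the 10 genes differed 5.77-fold to 6.67-fold between highest and lowest pair under 10 of 13 other settings. A filter of 1000 genes and 10% MT- UMIs left 3 pairs with 50 cells or more (186 cells), none of them among the 4 high pairs, and gave a ratio of 1.17, with 0 genes at 4-fold, 0 with a lower bound of 2, 0 at 2-fold above the median pair and a PARP9 share of 54.6%. Alternatives chosen after seeing the data were that filter with all 13 pairs kept (400 cells), which gave a ratio of 7.94 and a PARP9 share of 53.0%, the sum without PARP14 (4.05), and barcodes with over 20% MT- UMIs (ratio 6.67, PARP9 share 60.6%). Thinned to 4000 UMIs, the PARP9 share was 54.9%. Of the 30 genes named as most like a member, Spearman correlation kept 7 and leaving out the 2 pairs farthest from the median kept 15. With all 13 pairs kept under the strict filter, PARP9, DTX3L, TRIM25, TRIM14 and PML had ratios of 7.07 to 20.1, on few cells a pair, and PARP12 had 5.996 when thinned and 6.76 in barcodes over 20% MT- UMIs. The cause of these shifts was not tested, beyond the fewer pairs and cells that the settings leave. No paired analysis was possible because the hashtag pairs are not mapped to tumours. With 110 to 507 cells a pair, steps between neighbouring pairs are mostly within counting error for the lower genes.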
